A study of Homo sapiens with 6 samples.

Results

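Interferon-stimulated genes are the genes that cells switch on when an interferon binds its receptor. Type I interferons (alpha and beta) act through the receptor chains IFNAR1 and IFNAR2 and the kinases JAK1 and TYK2, which activate STAT proteins; together with IRF9 these bind a DNA element called ISRE. Interferon gamma acts through IFNGR1 and IFNGR2, and the activated STAT dimers bind an element called GAS. The products bind or destroy viral RNA, tag proteins with the ubiquitin-like protein ISG15, sense foreign or misplaced nucleic acid, or feed back on the pathway, and DNA damage can raise the same genes through the sensing of DNA in the cytosol.

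A list of 40 such genes was taken by symbol, and 38 of them are measured by a probe set annotated with that symbol alone, out of 18417 genes measured in all. STAT2 is not analysed here, and GBP1 shares its probe set with GBP3 and a pseudogene. GBP2 had 2 probe sets, of which the one with the higher mean was used. The cells were RPMI 8226, an established human multiple myeloma line of malignant plasma cells, given 0 or 6 Gy of carbon ions, a densely ionising particle radiation. Total RNA was taken 1 day after exposure and hybridised, labelled with biotin, to 3 arrays per dose. Both groups share the cell line, the time point and the culture medium. The design text speaks of batches of cells without tying a sample to a culture, so the spread between the 3 samples of a dose could be technical in part. The limma p-values and SEs combine that spread (4 residual degrees of freedom) with a prior pooled over all genes (5.85 prior degrees of freedom).

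The plasma cell genes SDC1, TNFRSF17 and IRF4 had unirradiated means of 9.98, 9.95 and 11.49 on the log2 scale. Of 11 plasma cell markers, 9 lay at or above the median level of all genes, while SLAMF7 (unirradiated mean 4.63) and FCRL5 (3.89) lay below it. By limma, CD38 fell by 0.42 (adjusted p 0.0127) and XBP1 by 0.23 (0.0405), SLAMF7 rose by 0.55 (0.00271), and the other 8 did not pass. The summed linear signal of the 11 lay between 25034 and 25542 on the unirradiated and between 22736 and 23976 on the irradiated arrays, and its part in the results was not tested. Markers of T and NK cells, monocytes, plasmacytoid dendritic cells and stroma, leaving out CD68 and TCF4, which plasma cells can express, had a median level of 4.94 and none above 6.57. CD68 and TCF4 themselves had mean levels of 9.96 and 11.80 and did not pass, so that upper bound rests on leaving them out. Of the other 25 markers, 2 passed the test (COL1A1 and COL3A1, both higher after irradiation). The summed linear signal of the 25 lay between 811 and 887 on the unirradiated and between 911 and 991 on the irradiated arrays. All but 1 of the 25 lay below the median level of all genes, and 84.0% of the 25 had a difference above 0. Of all genes below that level, 71.6% had a difference above 0 and 4.13% rose. The part of these markers in the results was not tested. No marker can be called absent, since the values are not set against a measured background.

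Where the interferon elements lie was read from the RefSeq promoters of GRCh38.p14, each from 250 bases before to 50 bases after an annotated start site. Of the 38 genes, 31 had an entry there. The core of the ISRE was searched as GAAA, any 2 bases and GAAA again, and the GAS as TTCNNNGAA, on both strands; matches may overlap each other. An ISRE match lay in the promoter of 22 of the 31 genes (71.0%), against 4.12% of all 14239 measured genes with an entry and 3.57% of all 35116 promoters. A GAS match was held by 10 of the 31 (32.3%), against 9.20% of measured genes and 7.66% of all promoters. A match of letters is a description of the promoter, not a site in use.

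The 200 bases before the start site are shown for the genes whose response is described first: SAMD9L and IFI6, which rose, IRF1 and PARP14, which fell, SAMD9, the neighbour of SAMD9L that did not pass, and ISG15, the gene that names the class. Sequences run 5′ to 3′ on the gene's strand, and capitals mark ISRE matches, except in IRF1, where they mark the GAS match.
SAMD9L: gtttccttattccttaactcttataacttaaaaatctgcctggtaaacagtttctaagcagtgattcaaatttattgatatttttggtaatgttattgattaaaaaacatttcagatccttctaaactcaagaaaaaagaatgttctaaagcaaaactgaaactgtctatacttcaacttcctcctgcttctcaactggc
SAMD9: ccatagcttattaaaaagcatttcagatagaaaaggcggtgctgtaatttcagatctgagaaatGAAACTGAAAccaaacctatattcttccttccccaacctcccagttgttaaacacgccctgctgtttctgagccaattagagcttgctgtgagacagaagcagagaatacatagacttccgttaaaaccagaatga
IFI6: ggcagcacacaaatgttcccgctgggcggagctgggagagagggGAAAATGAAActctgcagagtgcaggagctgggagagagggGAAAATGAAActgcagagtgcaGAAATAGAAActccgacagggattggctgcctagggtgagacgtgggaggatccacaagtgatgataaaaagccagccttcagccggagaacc
PARP14: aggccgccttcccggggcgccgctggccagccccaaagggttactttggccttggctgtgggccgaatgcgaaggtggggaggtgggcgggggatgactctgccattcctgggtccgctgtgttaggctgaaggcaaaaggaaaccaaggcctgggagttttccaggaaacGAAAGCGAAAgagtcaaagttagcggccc
IRF1: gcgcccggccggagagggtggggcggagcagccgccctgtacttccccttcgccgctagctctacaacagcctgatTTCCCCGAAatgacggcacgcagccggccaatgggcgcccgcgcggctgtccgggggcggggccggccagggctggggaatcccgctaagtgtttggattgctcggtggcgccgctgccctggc
ISG15: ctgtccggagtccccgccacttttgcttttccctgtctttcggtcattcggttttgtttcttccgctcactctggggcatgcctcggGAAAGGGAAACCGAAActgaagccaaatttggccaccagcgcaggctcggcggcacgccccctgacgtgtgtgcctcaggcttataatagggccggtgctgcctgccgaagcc
These stretches lie at chr7:93148386-93148585 (- strand), chr7:93117980-93118179 (- strand), chr1:27672193-27672392 (- strand), chr3:122680639-122680838 (+ strand), chr5:132490774-132490973 (- strand) and chr1:1013297-1013496 (+ strand) of GRCh38.p14. IFI6 held 3 ISRE matches, which begin at bases -156, -115 and -93 from the start site. SAMD9 held 1, at -136, and SAMD9L none in the 300 bases searched. PARP14 held an ISRE match at -29 and, not in capitals here, a GAS match at -40. The 2 ISRE matches of ISG15, at -113 and -107, overlap. IRF1 held no ISRE match and a GAS match at -124.

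**Figure D1:**
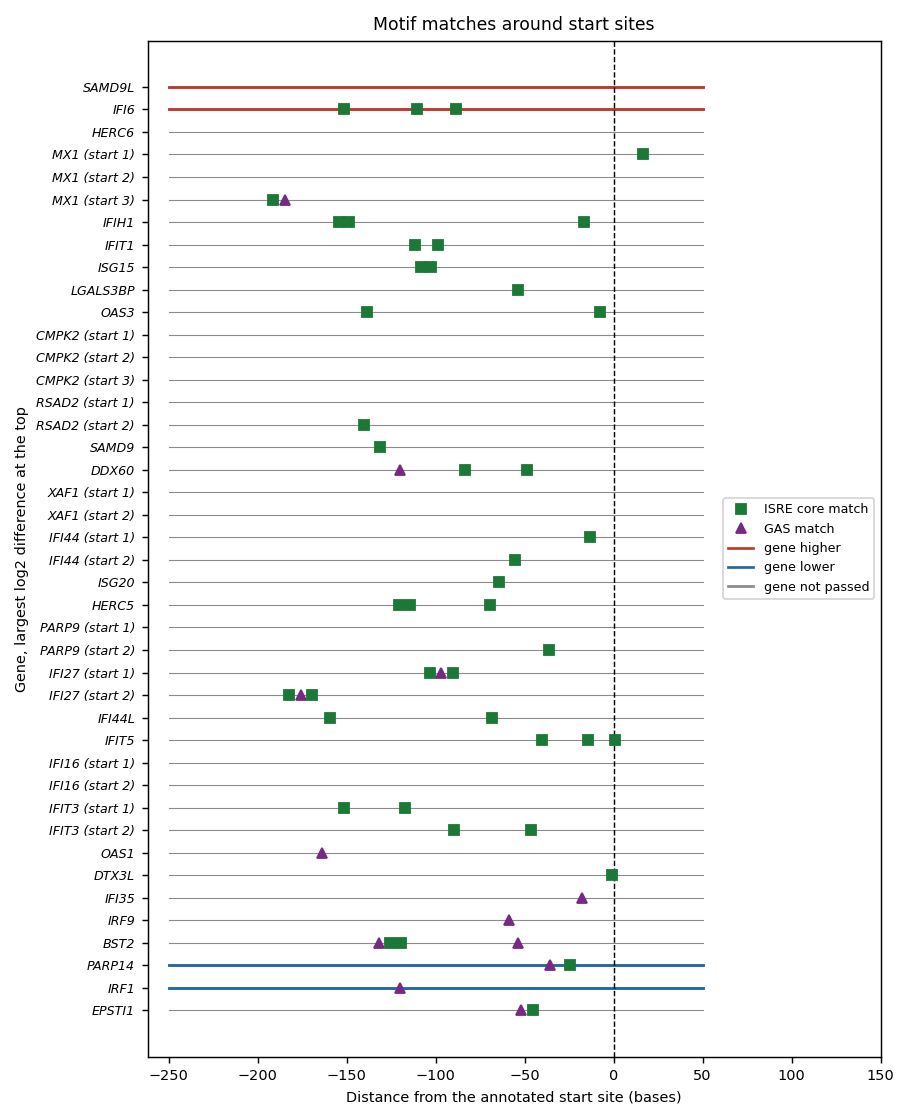
Matches to the ISRE core (squares) and to GAS (triangles) by distance in bases from each annotated start site, for the 31 genes with a promoter entry, ordered by log2 difference; lines are coloured by the result of the test. ISRE matches are spread over genes of every result, from IFI6 near the top with 3 matches to PARP14 near the bottom with 1.

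The response of these genes to carbon ions was small and went both ways. Of the 38, 3 rose (SAMD9L, IFI6 and OASL), 2 fell (IRF1 and PARP14) and 33 did not pass an adjusted p under 0.05 in limma. Of all genes, 6.35% rose and 8.18% fell, and 14.5% passed in either direction. The members' shares, 7.89% and 5.26%, lie near that background. The median log2 difference of the 38 was 0.05, against 0.04 for all genes, and 24 of the 38 lay above 0 (63.2%), as did 59.8% of all genes. With quantile normalization the count was 3 higher and 1 lower, and with array medians subtracted it was 3 higher and 4 lower. The share of all genes called under these other scalings was not counted. In RNA from a whole culture, fewer cells expressing a gene and less of its RNA per cell cannot be told apart.

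SAMD9L, an interferon-induced antiviral factor that restrains protein synthesis and cell growth, changed most. Its log2 values were 8.33, 8.43 and 8.46 on the unirradiated and 9.19, 9.12 and 9.16 on the irradiated arrays. All irradiated values thus lay well above all unirradiated ones. The log2 difference was 0.75 ± 0.07 (SE, n = 3 against 3), or 1.68-fold, with a limma adjusted p of 1.49e-04. It passed with any 1 array left out.

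SAMD9, its neighbour and paralogue on chromosome 7, had 8.34, 8.55 and 8.21 on the unirradiated and 8.41, 8.41 and 8.52 on the irradiated arrays. These groups overlap, and the difference was 0.08 ± 0.09 (SE, limma adjusted p 0.615). Within arrays, the change of SAMD9L exceeded that of SAMD9 by 0.67 on the log2 scale. The exact two-sided permutation p of that excess was 0.1, the smallest that 3 against 3 arrays allow, and 0.5 adjusted over the 10 pairs of adjacent genes compared. SAMD9L, the member of the pair that rose, is the one without an exact ISRE match in its promoter window. Its printed promoter holds aaaactgaaa, which departs from the searched letters at the first base only. Such near matches were not counted in the other promoters, so how common they are is not known here.

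IFI6 encodes a small hydrophobic protein of mitochondria and endoplasmic reticulum that counters cell death. It read 9.14, 9.24 and 9.15 without and 9.64, 9.60 and 9.61 with irradiation. The spread of the irradiated arrays was narrow (SD 0.02), and the groups were well apart. The difference was 0.44 ± 0.07 (SE), or 1.36-fold, with a limma adjusted p of 0.00237.

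The OAS family makes the second messenger that activates RNase L, except OASL, which has lost that activity and carries ubiquitin-like domains that assist RNA sensing. OASL read 5.32, 5.32 and 5.46 on the unirradiated and 5.64, 5.67 and 6.00 on the irradiated arrays. The groups were apart, with irradiated replicate 3 the highest. The difference was 0.41 ± 0.10 (SE), or 1.32-fold (limma adjusted p 0.0247), and the call ended without unirradiated replicate 1 (0.0836) or 2 (0.0859). The catalytic members did not pass: OAS1 (mean log2 level over all arrays 8.27) differed by -0.14, OAS2 (level 6.72) by 0.12 and OAS3 (level 4.54) by 0.13. OAS1 was nearly constant on the unirradiated arrays (8.33 to 8.35) and spread from 8.01 to 8.42 on the irradiated ones.

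**Figure D2:**
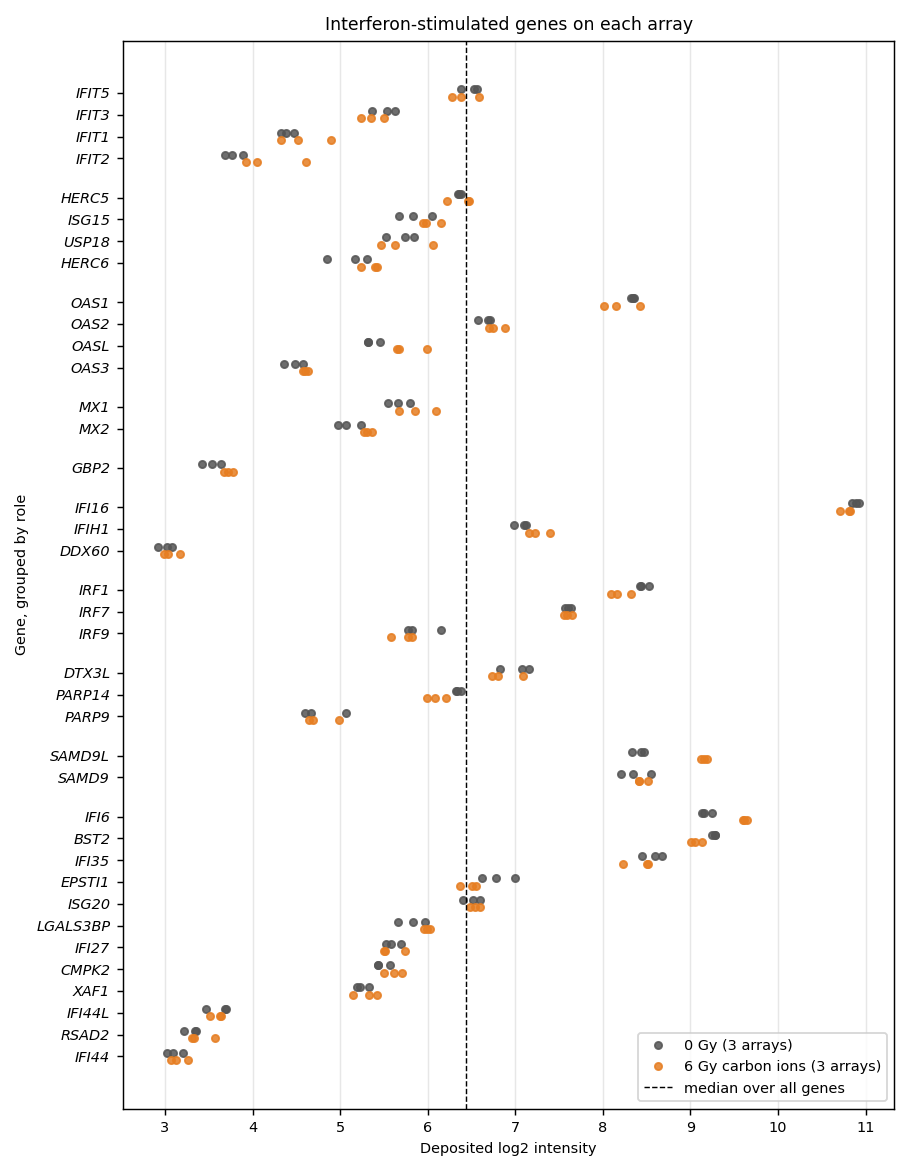
Deposited log2 intensity of each of the 38 genes on each array, grouped by role (grey, 3 arrays at 0 Gy; orange, 3 arrays at 6 Gy of carbon ions); the dashed line is the median level over all genes, 6.44. SAMD9L and IFI6 show the widest gaps between the groups, while the points of most other genes interleave or lie close together.

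All 3 measured transcription factors of the list had a difference below 0, that of IRF7 being only -0.01, and 1 of them fell. Of all genes, 59.8% had a difference above 0 and 8.18% fell. Of all genes at or above the median level, as 2 of the 3 are, 47.9% had a difference above 0 and 13.7% fell. IRF1, which interferon gamma induces through GAS and which itself activates many of these genes, read 8.43, 8.53 and 8.42 on the unirradiated and 8.17, 8.32 and 8.10 on the irradiated arrays. Every irradiated value was below every unirradiated one. It fell by 0.27 ± 0.08 (SE), or 1.20-fold, at the edge of the threshold (limma adjusted p 0.0469). The call ended with any 1 array left out other than irradiated replicate 2, with an adjusted p of 0.155 without unirradiated replicate 2, and with quantile normalization (0.0821).

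IRF9, the DNA-binding part of the ISRE complex, read 5.82, 6.15 and 5.77 without and 5.77, 5.59 and 5.82 with irradiation, and the groups overlapped. Its difference of -0.19 ± 0.11 (SE) did not pass (limma adjusted p 0.273). IRF7, the factor that amplifies the interferon alpha genes, read 7.64, 7.57 and 7.60 against 7.65, 7.59 and 7.56. Its difference was -0.01, with a 95% interval from -0.15 to 0.14, and its sign turned with quantile normalization.

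PARP14, PARP9 and DTX3L are neighbours on chromosome 3. PARP14 is an ADP-ribosyltransferase, and PARP9 binds the ubiquitin ligase DTX3L in a complex recruited to DNA breaks as well as to interferon signalling. PARP14 read 6.32, 6.38 and 6.34 on the unirradiated and 6.08, 6.21 and 5.99 on the irradiated arrays, which do not overlap. It fell by 0.25 ± 0.07 (SE), or 1.19-fold (limma adjusted p 0.0481). This call too ended with any 1 array left out other than irradiated replicate 2, with an adjusted p of 0.142 without unirradiated replicate 2, and it ended with an intensity trend and robust prior (0.0584). DTX3L (mean level 6.95) differed by -0.15 ± 0.11 and PARP9 (level 4.78) by 0.00 ± 0.13 (SE), and neither passed.

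A pair of bright genes lay just outside the threshold on the lower side. EPSTI1 read 6.78, 6.99 and 6.62 on the unirradiated and 6.37, 6.50 and 6.55 on the irradiated arrays. Its groups were apart, with a difference of -0.33 ± 0.10 (SE, limma adjusted p 0.0532). BST2, or tetherin, which holds budding viruses at the cell surface, read 9.28, 9.28 and 9.25 against 9.13, 9.05 and 9.01. It too was lower on every irradiated array, by 0.21 ± 0.07 (SE, limma adjusted p 0.0663). Both passed with array medians subtracted (0.0243 for EPSTI1 and 0.0457 for BST2), without the dimmest genes (0.0324 and 0.0355) and with an intensity trend and robust prior (0.0375 and 0.0283). EPSTI1 also passed with array weights (0.0298) and without unirradiated replicate 3 (0.0300), and its adjusted p was 0.170 without unirradiated replicate 2.

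**Figure D3:**
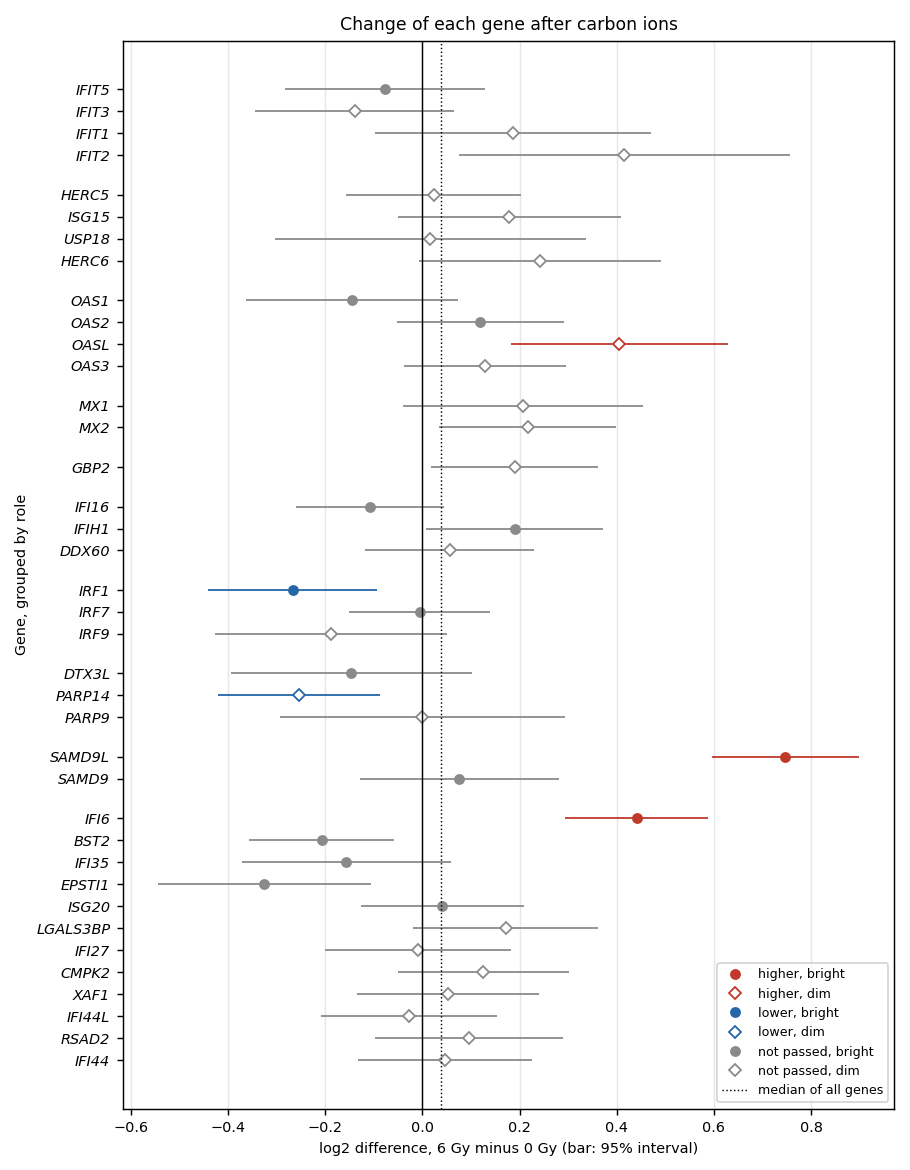
log2 difference (6 Gy minus 0 Gy) of each gene with its 95% interval from limma, grouped by role; filled circles are genes at or above the median level of all genes, open diamonds those below it. SAMD9L at 0.75 stands apart, followed by IFI6 (0.44), IFIT2 (0.42, not passed) and OASL (0.41), and the intervals of most others cross 0.

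The IFIT proteins bind foreign RNA ends or form complexes that do so. IFIT2 read 3.77, 3.89 and 3.69 on the unirradiated and 4.05, 4.61 and 3.92 on the irradiated arrays. Its groups were apart, with irradiated replicate 2 far above the other two. The difference was 0.42 ± 0.15 (SE, limma adjusted p 0.100); without irradiated replicate 2 it was 0.21, and without irradiated replicate 3 it was 0.55 and passed (0.0398). IFIT1 was also highest on irradiated replicate 2, at 4.90 against 4.32 and 4.52 on replicates 1 and 3, and differed by 0.19. IFIT3 (mean level 5.44) differed by -0.14 and IFIT5 (level 6.45) by -0.08. Of the 4 IFIT genes, 0 passed in limma and 1, IFIT2, had an unadjusted p under 0.05. The share of all genes under that unadjusted threshold was not counted, here or for the lists below. Over the whole list, 16 of 38 genes (42.1%) had their highest irradiated value on replicate 2, against 36.4% of all genes.

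ISG15 (mean level 5.94) differed by 0.18, with a 95% interval from -0.05 to 0.41. USP18, which strips ISG15 from proteins and shuts the receptor down, differed by 0.02 (level 5.71), and HERC5, the human ISG15 ligase, by 0.02 (level 6.37). None of the 4 genes passed in limma or had an unadjusted p under 0.05. HERC6, a relative of HERC5 next to it on chromosome 4, read 5.31, 5.17 and 4.85 against 5.42, 5.40 and 5.24. Its groups overlap, and the difference was 0.24 ± 0.11 (SE, limma adjusted p 0.178). USP18 and HERC5 fell below 0 with array medians subtracted, and USP18 also with quantile normalization.

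The MX proteins are dynamin-like GTPases that trap viral particles. MX2 read 5.24, 4.97 and 5.07 on the unirradiated and 5.36, 5.31 and 5.27 on the irradiated arrays, just apart. Its difference was 0.22 ± 0.08 (SE, limma adjusted p 0.107), and that of MX1, with overlapping groups and a mean level of 5.77, was 0.21 ± 0.11 (SE, 0.242). None of the pair passed in limma, and MX2 had an unadjusted p under 0.05. GBP2, a GTPase induced above all by interferon gamma, differed by 0.19 at a mean level of only 3.63.

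Among the nucleic acid sensors, IFI16, which binds DNA in the nucleus and cytosol and was the brightest of the 38 probe sets, read 10.85, 10.89 and 10.93 against 10.81, 10.83 and 10.71. The groups were just apart, but the difference of -0.11 ± 0.07 (SE) did not pass (limma adjusted p 0.321). IFIH1, the sensor of long double-stranded RNA also called MDA5, (mean level 7.16) differed by 0.19 ± 0.08 (SE, 0.151), with every irradiated value above every unirradiated one. DDX60, a helicase linked to RNA sensing, differed by 0.06 at a mean level of 3.04.

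Apart from EPSTI1 and BST2, the other effectors that did not pass lay between -0.16 and 0.17 on the log2 scale. With the mean level over all arrays after each difference, they were the exonuclease ISG20 (0.04, level 6.52), RSAD2 or viperin, which makes a chain-terminating nucleotide (0.10, level 3.35), and its neighbour CMPK2, a nucleotide kinase (0.13, level 5.54). The others were XAF1, an antagonist of the caspase inhibitor XIAP (0.05, level 5.27), IFI27 (-0.01, level 5.59), IFI44 (0.05, level 3.13), IFI44L (-0.03, level 3.61), IFI35 (-0.16, level 8.49) and the secreted galectin-binding protein LGALS3BP (0.17, level 5.90). Beside these stands the median within-group SD of the 38 genes, 0.10 on the unirradiated and 0.11 on the irradiated arrays.

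The intervals bound what could have been missed. For all 38 genes the 95% interval of the difference in limma, not adjusted for the number of genes, lay between -1 and 1 on the log2 scale. Of the 33 genes that did not pass, 31 had an interval within -0.5 and 0.5. The exceptions were IFIT2, whose interval reached 0.76, and EPSTI1, whose interval reached -0.54. A probe set near its background shows less change than its transcript undergoes, so for dim genes these bounds hold for the signal only.

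The direction of the differences went with the level of the signal, in the list and over all genes. Taking the median level of all genes, 6.44, as the line, 15 of the 38 were bright and 23 dim. Of the dim, 18 of 23 (78.3%) had a difference above 0, with a median of 0.10. Of all 9208 dim genes 71.6% did, with a median of 0.07. Of the bright, 6 of 15 (40.0%) had a difference above 0, with a median of -0.08. Of all 9209 bright genes 47.9% did, with a median of -0.01. Dim genes of any kind thus leaned towards higher values on these arrays, and the share among the dim members lies near theirs. The size of this lean varied with the arrays used. The median of all dim genes was 0.04 without irradiated replicate 3, 0.09 without irradiated replicate 1 and 0.04 with quantile normalization. Of all dim genes, 50.7% had their highest irradiated value on replicate 3.

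By the test, 2 of the 15 bright genes rose (SAMD9L and IFI6) and 1 fell (IRF1), against 8.57% and 13.7% of all bright genes (22.2% in either direction). Of the 23 dim genes 1 rose (OASL) and 1 fell (PARP14), against 4.13% and 2.70% of all dim genes (6.83% in either direction). Groups that do not overlap were found for 7 genes higher and 5 lower of the 38, against 19.0% and 15.7% of all genes (34.7% in either direction). The 7 were SAMD9L, IFI6, OASL, IFIT2, MX2, IFIH1 and GBP2, and the 5 were IRF1, PARP14, EPSTI1, BST2 and IFI16. Of the dim genes 4 were apart on the higher and 1 on the lower side, against 16.9% and 5.66% of all dim genes (22.6% together). Of the bright genes 3 were apart on the higher and 4 on the lower side, against 21.0% and 25.7% of all bright genes (46.7% together).

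**Figure D4:**
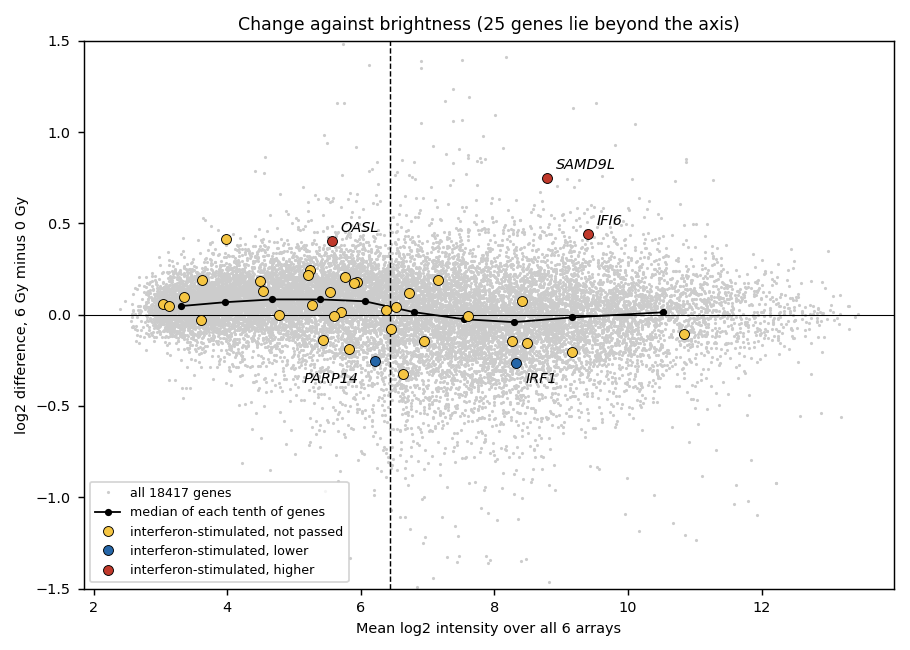
log2 difference against mean log2 intensity over all 6 arrays for all 18417 genes (grey; 25 lie beyond the axis) and for the 38 interferon-stimulated genes (coloured by the result of the test), with a line through the medians of 10 groups of genes of like level. The line runs above 0 for the dimmer genes, up to 0.08, and below 0 in groups 7 to 9, down to -0.04.

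The calls were set beside the promoter matches. Of the 22 genes with a match, 1 rose and 1 fell, and their median difference was 0.04. Of the 9 without, 1 rose and 1 fell, and their median was -0.11. The 10 genes with a GAS match had a median of -0.17, with 2 lower and 0 higher, while the 21 without had a median of 0.08, with 2 higher and 0 lower. Of the 10, 5 are bright, and of the 21, 8 are. The 2 lower are IRF1 and PARP14, whose calls ended with any 1 array left out other than irradiated replicate 2. Among measured genes outside the 40, the 1300 with a GAS match had a median of 0.04, with 6.77% higher and 6.31% lower. The 12908 without one had a median of 0.03, with 6.09% higher and 8.92% lower. For the ISRE, 7.08% of the 565 other genes with a match rose and 8.32% fell, against 6.11% and 8.69% of the 13643 without. The members' figures rest on few genes, some of which hold both elements, and in EPSTI1, BST2, MX1 and IFI27 an ISRE match and a GAS match overlap. No test was made of them.

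Adjacent genes were compared within arrays. Besides SAMD9 and SAMD9L, the adjacent IFIT2 and IFIT3 on chromosome 10 differed in their change by 0.56 on the log2 scale within arrays, with groups apart (exact permutation p 0.1, the smallest possible, and 0.5 adjusted over the 10 pairs). The other 8 pairs of adjacent measured genes had overlapping groups, among them MX1 with MX2, IFI44 with IFI44L and CMPK2 with RSAD2, whose changes differed by 0.01, 0.07 and 0.03. Among single genes 34.7% had groups apart in either direction. The share among adjacent pairs outside the list was not counted.

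Further genes of the interferon pathway were taken in 6 lists, chosen with earlier results of these data known, and 101 of their genes are measured. Of these, 14 rose and 5 fell, or 13.9% and 4.95%, against 6.35% and 8.18% of all genes. The shares were 8.57% and 13.7% of all bright and 4.13% and 2.70% of all dim genes, and 63 of the 101 are bright. At the top of the pathway stand the ligands. Of 16 measured interferon genes none passed in limma in either direction and 1, IFNL3, had an unadjusted p under 0.05. All but IFNL3 were dim, the median difference was 0.08, and 6.83% of all dim genes passed in either direction. IFNB1 read 3.22, 3.25 and 3.47 against 3.44, 3.36 and 3.39, and IFNG 3.34, 3.31 and 3.39 against 3.18, 3.60 and 3.36. Both pairs of groups overlap. The ligands with the smallest p, IFNL3 (0.24) and IFNL2 (0.24), had limma adjusted p of 0.137 and 0.181.

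Of 9 receptor chains and kinases, 7 of them bright, none passed in limma, against 22.2% of all bright genes. At an unadjusted p under 0.05 there were 3, and the median difference of the 9 was -0.05. IFNAR2 was lower on every irradiated array, at 9.01, 8.87 and 8.91 against 8.66, 8.68 and 8.77, a difference of -0.23 ± 0.07 (SE, limma adjusted p 0.0597). IFNAR1 differed by -0.11 and IL10RB, a chain of the lambda receptor, by 0.23 (0.0964). Of 10 negative regulators, SOCS1, an inhibitor of JAK kinases that interferons induce, rose by 0.43 ± 0.09 (SE, 0.00992). The phosphatase gene PTPN6 fell by 0.40 ± 0.09 (SE, 0.0138), a call that ended without unirradiated replicate 2 (0.0585). IRF2BP2 (-0.25) and PTPN2 (-0.21) did not pass. Of the 10 regulators 9 are bright, and 10.0% rose and 10.0% fell, against 8.57% and 13.7% of all bright genes.

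Of 20 measured sensors and adaptors upstream of interferon, 6 rose (30.0%) and 0 fell in limma, with a median of 0.02. Of all bright genes 8.57% rose and 13.7% fell, and of all genes 6.35% and 8.18%. Since the list was chosen with earlier results of these data known, the difference in shares was not tested. At an unadjusted p under 0.05 the counts were 7 higher and 4 lower, with no share of all genes counted at that threshold. Of the 20, 15 are bright, all 6 that rose among them. TLR9, the endosomal sensor of unmethylated DNA that B cells express, read 10.33, 10.35 and 10.34 on the unirradiated and 11.07, 11.08 and 11.07 on the irradiated arrays. That gap is far larger than the spread, and the difference was 0.73 ± 0.06 (SE, limma adjusted p 1.03e-04), or 1.66-fold. TICAM1, the adaptor of TLR3, rose by 0.49, and STING1, the adaptor of cytosolic DNA sensing, by 0.43.

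MYD88, the adaptor that serves TLR7 and TLR9, rose by 0.35, SAMHD1, a dNTP hydrolase, by 0.26 and the kinase gene IKBKE by 0.25. The call ended for MYD88 without unirradiated replicate 1 or irradiated replicate 1 (adjusted p up to 0.0654), for SAMHD1 without any 1 array other than irradiated replicate 3 (up to 0.102) and for IKBKE without any 1 array (up to 0.137). SAMHD1 and IKBKE also lost it with array medians subtracted. TLR7 (-0.27, limma adjusted p 0.0655) and the RNA sensor gene RIGI (-0.19, 0.103) were lower on every irradiated array without passing.

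**Figure D5:**
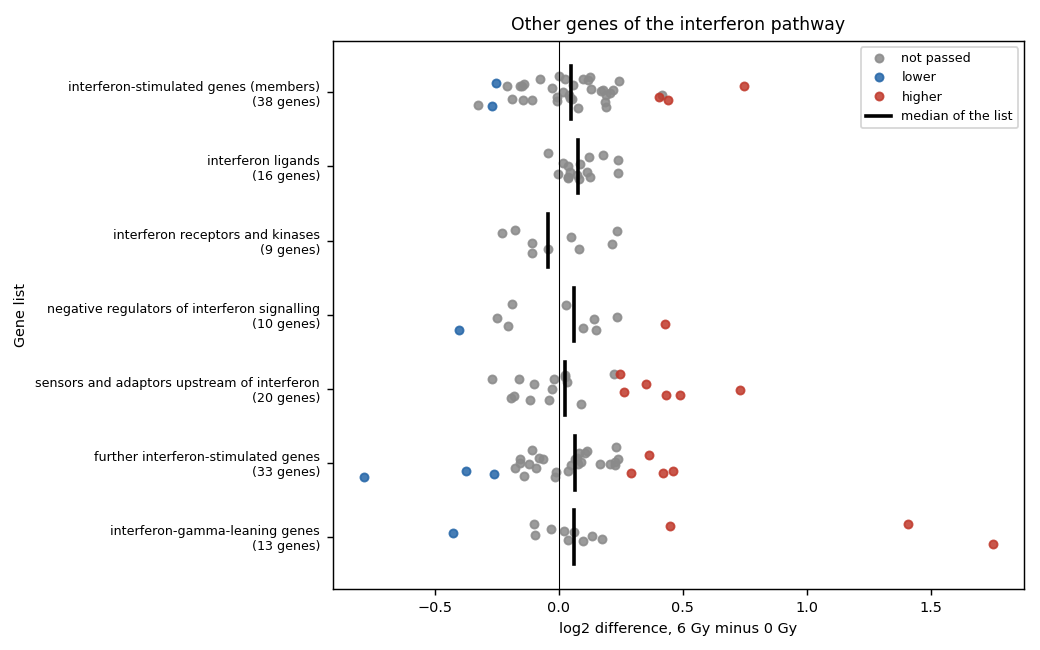
log2 difference (6 Gy minus 0 Gy) of each measured gene in the interferon-stimulated list and in 6 other lists of the pathway, coloured by the result of the test, with the median of each list as a bar. The medians lie between -0.05 and 0.08, while single genes such as CXCL9, CXCL10, TLR9 and APOL6 lie far from them.

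Other genes that interferons raise went both ways as well. Of 33 measured, 4 rose and 3 fell (12.1% and 9.09%), with a median of 0.06. The shares of all bright genes were 8.57% and 13.7%, and 26 of the 33 are bright. The largest change was a fall: APOL6, which encodes an apolipoprotein L family protein, read 7.91, 8.05 and 7.88 against 7.31, 7.08 and 7.09, with no overlap, and fell by 0.78 ± 0.08 (SE, limma adjusted p 3.69e-04). TRIM25, the ubiquitin ligase that activates RIG-I, fell by 0.37. IFITM2, which blocks virus entry, rose by 0.46, PML, the scaffold of nuclear bodies, by 0.42, PLSCR1 by 0.36 and the antiviral zinc finger gene ZC3HAV1 by 0.29, while the cap methyltransferase gene CMTR1 fell by 0.26. PARP12 (0.23) and SP110 (0.23) did not pass. With 1 array left out the call ended for PML (2 of the 6 arrays), PLSCR1 (4), ZC3HAV1 (5) and CMTR1 (6), with adjusted p up to 0.0614, 0.0942, 0.111 and 0.139; it stood for APOL6, TRIM25 and IFITM2.

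Genes that lean on interferon gamma included 3 that rose and 1 that fell of 13 measured (23.1% and 7.69%), with a median of 0.06. Beside these stand 6.35% and 8.18% of all genes, and 5 of the 13 are bright. The chemokine genes CXCL9 (1.75 ± 0.15, SE) and CXCL10 (1.41 ± 0.11, SE) and the adhesion gene ICAM1 (0.45) rose, and NLRC5 fell by 0.43. The folds of CXCL9 and CXCL10 were 3.36 and 2.65. The other 9 did not pass, among them GBP4 (0.18) and CIITA (0.13).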

How the data were processed

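The authors' deposited table gives 33297 probe set values on each of 6 arrays, read as log2 intensities from their range of about 2 to 14; no label or header used here names the base of the logarithm, the normalization or the software (not given in the sources used here). Array medians lay between 5.64 and 5.72 and correlations within a dose between 0.996 and 0.998. Gene symbols came from GEO's annotation of the platform: 19460 probe sets had 1 gene symbol, 1754 several and 12083 none, and 19429 matched a RefSeq gene by Entrez ID. The brightest probe set stood for each of 18417 genes. Doses were compared in limma 3.58.1 (R 4.3.3, lmFit and eBayes, no covariate, no filter, two-sided) with Benjamini-Hochberg adjustment over all genes; "rose" and "fell" mean an adjusted p under 0.05. SEs are limma's, and intervals use its 4 residual and 5.85 prior degrees of freedom. The steps were tested on simulated data of the same size. An exact test of 1 gene with 3 arrays against 3 cannot reach a p under 0.1. Precision is limited by having 3 arrays a dose; the median SE over genes was 0.08. Summaries were made in Python 3.11.15 with numpy 2.4.6 and pandas 2.3.3, and plots with matplotlib 3.10.9.

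The 40 genes, the pathway lists and the tests were chosen with earlier results of these data known. Values on every array are given for the genes that passed, the 4 others with the largest difference, the 4 brightest, the transcription factors and, beyond that rule, SAMD9, IFNAR2, IFNB1, IFNG, APOL6, TLR9 and the probe set that GBP1 shares, chosen after their values were seen. Counts at an unadjusted p under 0.05 were added after the results were seen, and the share of all genes at that threshold was not counted. Of the pathway lists, genes that passed and the 2 with the smallest p are named, with IFNAR1, IFNAR2, IFNB1 and IFNG; 1 other gene that the rule names is not analysed here. Alternatives were leaving out each array in turn, a replicate block on the sample number, leaving out the dimmest genes, quantile normalization, subtracting array medians, array weights, limma's trend with robust variances, averaging a gene's probe sets, an adjusted p under 0.01 and other lines between bright and dim.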

Additional observations from a re-analysis of the deposited data

How the results depend on the processing

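The rises of SAMD9L and IFI6 passed under all 14 alternative settings tried for them, with differences from 0.71 to 0.79 and from 0.41 to 0.47 on the log2 scale. The count of called genes, 5 (3 higher, 2 lower), was 3 (0 lower) when the sample numbers entered as a replicate block, in which IRF1 (adjusted p 0.0573) and PARP14 (0.0741) did not pass, and 2 (0 lower) at an adjusted p under 0.01. It ran from 2 to 5 with 1 array left out (2 to 4 higher, 0 to 2 lower), at 2 without unirradiated replicate 1 or 2, where the lower count was 0. The lower count was 4 without the dimmest genes and with array medians subtracted, and 1 with quantile normalization. In the first case fewer genes were tested, and limma's SEs also changed (0.0623 against 0.0666 for BST2, 0.0742 against 0.0778 for IRF1). The cause of these shifts was not tested. For these counts and for those of the pathway genes, the share of all genes called was not counted under the alternative settings. With array medians subtracted, the median difference of all genes was 0.01 and that of all bright genes -0.04, against 0.04 and -0.01 in the main fit. The 19 calls over the other pathway genes became 12 to 16 with 1 array left out (12 without unirradiated replicate 2), 14 with the replicate block and 9 at an adjusted p under 0.01. They became 21 with quantile normalization, 22 with array medians subtracted or with array weights, 25 without the dimmest genes and 27 with an intensity trend and robust prior. The median of bright members was 0.0196 with the line at the lower quartile, which put 30 of the 38 above it, and that of dim members 0.0380 without the dimmest genes, which left 12 of 23. No other setting moved either median by more than the spread between arrays. Deviations of same-numbered arrays correlated by -0.04, 0.10 and -0.11, so the numbers were not taken as pairs. Signs turned under another scaling for 4 of the 38 genes (HERC5, IRF7, USP18 and PARP9). Without detection calls, what the dim genes can show is limited.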

Other observations

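The probe set that GBP1 shares with GBP3 and the pseudogene GBP1P1 read 5.56, 5.59 and 5.57 on the unirradiated and 5.81, 5.91 and 6.17 on the irradiated arrays, a difference of 0.39 with no overlap; the probe set of GBP3 alone differed by -0.03. The probe set shared by USP18 and USP41P differed by 0.14, and the second probe set of GBP2 by 0.28 at a mean of 3.00 over all arrays. None of these entered the gene test.

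Across the 565 measured genes outside the list whose promoter held an ISRE match, the median difference was 0.03, against 0.04 for the 13643 without one, and CXCL9 had the largest increase among the 565.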
